A study of Homo sapiens with 14 samples.

Results

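C-to-U changes were read out in the transcripts of 10 genes that sense nutrients and stress for mTOR signalling or carry it out, in 14 RNA libraries of 293FT cells. The genes were SESN2, TSC1, TSC2, MTOR, RPTOR, RICTOR, MLST8, DEPDC5, NPRL2 and NPRL3. Every called site on the strand of one of these genes and inside its GENCODE 29 body (GRCh38) was taken. That gave 51 distinct sites of 22358 in the series. All but 1 of them were C-to-U sites, and all 50 C-to-U sites came from cells given the base editor hA3A-BE3.

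The 293FT line is an established human line of embryonic kidney origin. The study asked whether a prime editor changes RNA bases away from its target. The 3 libraries of hA3A-BE3 came from cells given a Cas9 nickase fused to human APOBEC3A, a cytosine deaminase that also acts on RNA. The other 11 libraries were 2 of PE3, a prime editor made of a Cas9 nickase and a reverse transcriptase, 3 of Cas9, 3 of EGFP and 3 of non-transfected cells. All sample titles carry the name hRNF2, and cells in the top 15% of fluorescence were sorted 40 h after transfection; how this applied to non-transfected cells is not stated. Whether the replicates of a group were grown as separate cultures is not stated, so the spread between them may be technical. Lists of called sites hold no level of genes without a site, so markers of the cell line could not be checked.

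The kinase MTOR works in a pair of complexes. RPTOR marks complex 1, which drives protein synthesis and growth, RICTOR marks complex 2, and MLST8 belongs to both. Complex 1 is switched on at the lysosome by the small GTPase RHEB, and the TSC1-TSC2 complex switches RHEB off. Amino acids act through the Rag GTPases, which are switched off by GATOR1, a complex of DEPDC5, NPRL2 and NPRL3. Sestrin 2, the product of SESN2, is a stress-induced leucine sensor that restrains complex 1 by way of GATOR2.

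A site is called recurrent here if each of the 3 hA3A-BE3 lists held it as C-to-U and none of the other 11 lists did. The transcript sequences around the 6 recurrent sites of these genes, and around the most edited of the sites called in 2 libraries, MTOR S1296L, show which bases stood next to the edited cytosine. They are given 5′ to 3′ from the GENCODE 29 transcripts, with T for U, 12 bases on each side of the edited C, and capitals mark that C and the base before it.
SESN2 5′ UTR, 48 bases before the start codon: ccgaaacccacTCgggtgcacgggt
SESN2 F321F: agaccctacttTCggatatgaggac
SESN2 3′ UTR, 473 bases after the stop codon: ccattcacccaTCaatgtgaaagtc
SESN2 3′ UTR, 843 bases after the stop codon: ctgcacctgccTCgcagaggccagc
TSC1 R884W: aaagccgcctaTCggaaagagctag
TSC2 I383I: gctcaggaccaTCgtccatgacctg
MTOR S1296L: tgaaggactcaTCatcgccctccct
In each of the 7 the edited C followed a U. It stood before a G in all but the SESN2 site 473 bases after the stop codon and MTOR S1296L, where an A followed.

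The 10 genes held 13, 24 and 36 C-to-U sites in hA3A-BE3 replicates 1, 2 and 3, a mean of 24.3 ± 11.5 (SD, n = 3). In each of the 9 control libraries and of the 2 PE3 libraries they held 0. The whole lists of these 11 libraries held only 42 to 53 C-to-U sites each, so a count of 0 in 10 genes says little by itself. Of all distinct C-to-U sites of hA3A-BE3 cells, 0.319% were also called in another group. The replicates stood in the same order as their whole lists, which had 2499, 5113 and 6446 C-to-U sites, and the 10 genes took 0.520%, 0.469% and 0.558% of these. Per gigabase (Gb) of mapped bases, inferred from the depth columns, the 10 genes had 1.79, 4.09 and 4.06 sites. The hA3A-BE3 libraries had 5.87 to 8.87 Gb behind them and the 11 others 3.26 to 10.6 Gb. The lowest values in the lists were 2 mutated reads, an edited share of 5.02% and, by the larger deposited read depth, 3.01 reads per Gb. The filters behind them were not given, but sites with lower values were not listed. A missing site is therefore not a level of 0. The 10 genes were chosen by their biology with the C-to-U counts and levels of hA3A-BE3 cells already known, so these are described without a test.

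**Figure D1:**
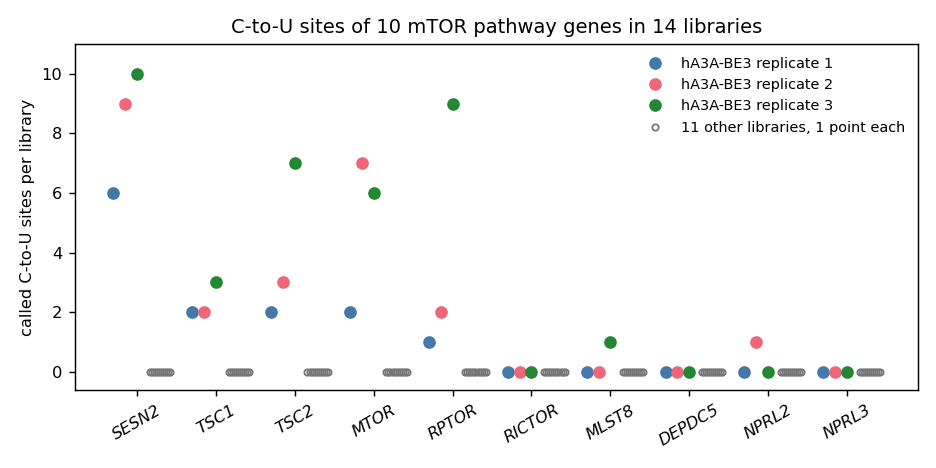
Number of called C-to-U sites (vertical axis) in each of the 10 genes (horizontal axis), with 1 filled point per hA3A-BE3 library and 1 open point for each of the 11 other libraries. SESN2 has 6, 9 and 10 sites, and every open point lies at 0.

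Of the 10 genes, 7 had a C-to-U site in a hA3A-BE3 library and 3 had a recurrent one. For comparison, 23.2% of the 19907 annotated protein-coding genes had any such site and 4.39% had a recurrent one. A site called in at least 2 hA3A-BE3 libraries and in no other group was found in 5 of the 10, against 9.43% of protein-coding genes. The 5608 genes with a called site of any kind are a closer reference, since a gene must be read to be listed. Of these, 83.3% had a C-to-U site in a hA3A-BE3 library, as all 7 listed members did, 15.7% a recurrent one, as 3 of the 7 did, and 3.5% a C-to-U site in a control library, as 0 of the 7 did. Since the choice of genes used the hA3A-BE3 values, nothing is read from these differences. Of the 50 distinct sites, 6 (12%) were recurrent, against 10.2% of the 10353 distinct C-to-U sites of hA3A-BE3 cells, and 17 (34%) were called in at least 2 libraries, against 25.2%. The other 33 sites were called in 1 library, 20 of them in replicate 3, 8 in replicate 2 and 5 in replicate 1. Of the 11 sites called in exactly 2 libraries, 9 were missing from replicate 1.

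SESN2, the stress-induced sensor, carried the most sites. The gene lies on chromosome 1 at 28259527 to 28282491 (plus strand), and its transcript of 3453 bases held 14 distinct C-to-U sites, 6, 9 and 10 in replicates 1 to 3. Of the 4670 genes with a hA3A-BE3 C-to-U site, 7 had more, and the median gene had 2. Per kilobase of the longest transcript SESN2 had 4.05 sites, which placed it 7 of 4597 protein-coding genes with a site, where the median was 0.449. The sites ran through the whole messenger RNA, with 1 in the 5′ UTR, 7 in the coding sequence and 6 in the 3′ UTR.

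The 4 recurrent SESN2 sites lay in exons 1, 7 and 10. In the 5′ UTR (exon 1, position 28259800) the edited share was 17.9%, 35.7% and 33.3% in replicates 1 to 3, from 28, 28 and 24 covering reads, a mean of 28.97% ± 9.70 (SD, n = 3). At F321F in exon 7 (position 28274101), a synonymous change of a phenylalanine codon, it was 9.09%, 28.1% and 18.6%, from 77, 57 and 86 reads. Here the 95% Wilson interval of replicate 1, 4.47% to 17.6%, did not reach that of replicate 2, 18.1% to 40.8%. These intervals cover counting error only, since reads without molecular identifiers are not independent molecules.

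In the 3′ UTR (exon 10) the site 473 bases after the stop codon (position 28281275) was edited at 14.3%, 22.9% and 24.2%, from 42, 48 and 62 reads. The site 843 bases after it (position 28281645) reached 22.4%, 23.8% and 37.2%, from 58, 42 and 78 reads. Replicate 1 was the lowest at each of the 4 sites, and its interval overlapped those of both other replicates at all but F321F. At F321F it overlapped that of replicate 3, 11.8% to 28.1%, but not that of replicate 2. Over the 1057 recurrent sites of all genes replicate 1 was the lowest at 65.3%, replicate 2 at 16.7% and replicate 3 at 17.98%, with median levels of 10.7%, 15.5% and 14.96%. The 4 SESN2 means, 18.6% to 28.97%, stood above the median of 13.9% over these sites.

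A further 3 SESN2 sites were called in replicates 2 and 3 but not in replicate 1. S387S, in exon 8, left a serine codon unchanged in meaning and stood at 22.9% and 11.8%, from 35 and 51 reads. It is 1 of 4 sites of the 10 genes whose edited C did not follow a U, here a C. I425I in exon 9 had 8.51% and 15.8%, and the 3′ UTR site 1216 bases after the stop codon 8.89% and 8.33%. The remaining 7 were called once: I2I at 11.1%, next to the start codon, I162I at 12.9%, F210F at 8.51%, Q196X at 5.17%, and 3′ UTR sites 916, 1291 and 1342 bases after the stop codon at 5.19%, 5.97% and 7.41%. Q196X, which turns a glutamine codon of exon 5 into a stop codon, rested on 3 of 58 reads of replicate 2. It was the single stop codon among the 50 sites.

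**Figure D2:**
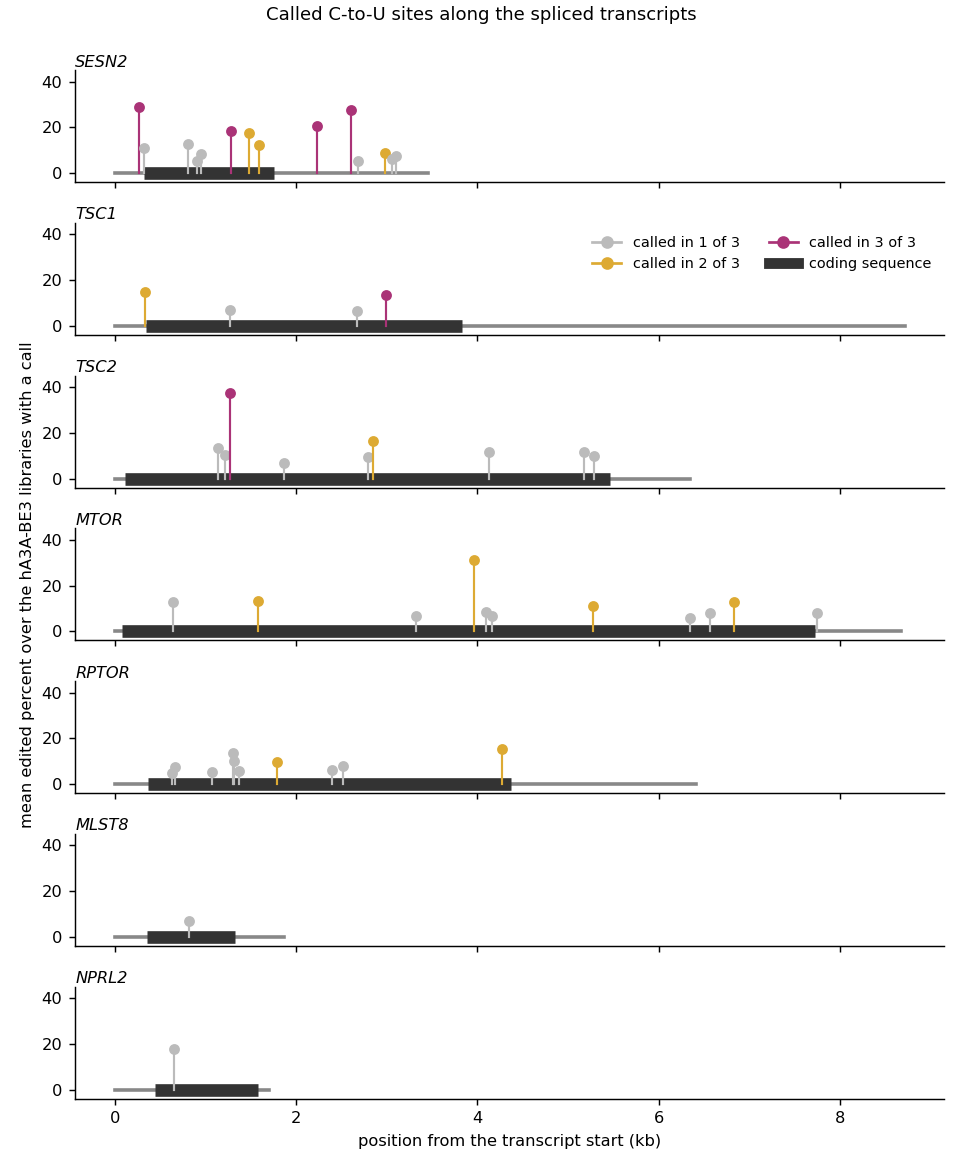
Called C-to-U sites along the longest transcript of the 7 genes that had any, by distance from the transcript start in kb (horizontal axis) and mean edited percent over the hA3A-BE3 libraries with a call (vertical axis). Colour gives the number of hA3A-BE3 libraries with the call and the thick bar the coding sequence; SESN2 has sites from the 5′ UTR to the 3′ UTR, while those of RPTOR all lie in the coding sequence.

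Of the GATOR1 genes, NPRL2 alone had a called site. It was I71I in exon 3 (chromosome 3, position 50349791, minus strand), a synonymous isoleucine change called in replicate 2 at 17.6%, from 3 of 17 covering reads (Wilson interval 6.19% to 41.0%). DEPDC5 (chromosome 22, 31753867 to 31908033) and NPRL3 (chromosome 16, 84271 to 138860) had no called site of any kind in the 14 lists. Their longest transcripts hold 393 and 202 cytosines after a U. Whether those were read deeply enough to be called cannot be told from lists of called sites.

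The genes of the TSC complex each held 1 recurrent site. In TSC2, which carries the domain that switches RHEB off, it was I383I in exon 12 (chromosome 16, position 2061900, plus strand), a synonymous isoleucine change. The edited share was 22%, 41.7% and 48.8% in replicates 1 to 3, from 50, 36 and 43 reads, a mean of 37.5% ± 13.9 (SD, n = 3). This was the highest level among the 10 genes, and 60 of the 1057 recurrent sites of all genes ranked above it. The Wilson interval of replicate 1, 12.8% to 35.2%, overlapped that of replicate 3, 34.6% to 63.2%, by little.

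TSC2 held 9 distinct sites, all coding. I912I was called in replicates 2 and 3, at 20% and 12.8%, from 25 and 47 reads. The other 7 were called once, at 6.67% to 13.3%: I342I in replicate 1, T584M in replicate 2, and I365I, H891Y, I1336I, F1685F and I1722I in replicate 3. T584M and H891Y change the protein, each from 3 mutated reads. Residues are numbered in the longest transcript; the last 3 sites are residues 1359, 1710 and 1747 of the principal transcript, whose numbering runs ahead there.

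In TSC1, the partner that stabilises TSC2, the recurrent site changed the protein. R884W in exon 21 (chromosome 9, position 132897583, minus strand), residue 885 of the principal transcript, replaces an arginine by a tryptophan. It was edited at 10.8%, 20% and 9.52%, from 37, 35 and 42 reads, a mean of 13.4% ± 5.71 (SD, n = 3). Unlike the SESN2 and TSC2 sites it was lowest in replicate 3, and its 3 Wilson intervals, which together ran from 3.77% to 35.9%, overlapped. It was the single recurrent site of the 10 genes that changed an amino acid. A 5′ UTR site 11 bases before the TSC1 start codon (position 132928883) was called at 21.9% in replicate 2 and 7.32% in replicate 3. S309F (6.98%, replicate 1) and I778I (6.67%, replicate 3) were called once, from 3 reads each.

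TSC1 also held the single site that was not C-to-U. At position 132910102 an A-to-I change was called in Cas9 replicate 3 (11.1%, 3 of 27 reads), non-transfected replicate 2 (13.3%, 2 of 15) and PE3 replicate 3 (16.7%, 3 of 18). It was in no hA3A-BE3 list. The position is 3′ UTR in a short TSC1 transcript and intronic in the principal one. The C-to-U calls of TSC1 had 32 to 45 covering reads. For the other 9 genes, the lists of the 11 libraries without the base editor give no coverage. In all, 25.1% of the genes with any called site had an A-to-I site.

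MTOR, the kinase itself, held 11 distinct sites (2, 7 and 6 in replicates 1 to 3) and none that was recurrent. The gene lies on chromosome 1 at 11106535 to 11262507 (minus strand). S1296L in exon 26 (position 11204618) was called at 35.0% in replicate 2 and 27.3% in replicate 3, from 20 and 22 reads. Its mean of 31.1% was the second highest of the 10 genes over libraries with a call. That mean leaves out replicate 1, the lowest replicate at most recurrent sites. Over replicates 2 and 3 alone S1296L ranked below TSC2 I383I (45.3%) and the SESN2 5′ UTR site (34.5%). It replaces a serine by a leucine. The larger deposited read depth, over the constant per library read here as Gb, was 3.57 and 3.38 there, just above the lowest value in the lists, 3.01. A depth under that value in replicate 1 could have kept the site off its list, and its depth there is not known.

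The other MTOR sites called in 2 libraries were synonymous isoleucine changes. I501I stood at 7.69% in replicate 1 and 18.9% in replicate 2. I1732I stood at 11.1% in replicates 1 and 3 alike, and I2250I at 14.3% in replicate 2 and 11.6% in replicate 3. Each of these pairs had overlapping Wilson intervals. The 7 sites called once included P189S (12.9%, 4 of 31 reads) and S2091L (5.83%, 6 of 103 reads), which change the protein. The others were I1338I, I2163I, F1082F, F1363F and a 3′ UTR site 23 bases after the stop codon, at 6.82% to 8.33%.

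RPTOR, which recruits substrates to complex 1, held 10 distinct sites, all coding and none recurrent. The gene lies on chromosome 17 at 80544819 to 80966371 (plus strand). Its calls were the most uneven among replicates, with 1, 2 and 9 in replicates 1 to 3. I1304I was called at 21.1% and 9.38% and Y475Y at 12% and 6.98% in replicates 2 and 3, from 19 to 43 reads. Y475Y was edited after an A, not a U. The 8 sites called once stood at 5.06% to 13.4%, and 7 of them came from replicate 3. They included the protein changes S92L, S236L and R718C, at 5.06%, 5.45% and 8%, and F316F and I319I, a pair in 1 exon at 13.4% and 10.0%.

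MLST8, the subunit shared by both complexes, had 1 site, I154I in exon 6 (chromosome 16, position 2207234), called in replicate 3 at 6.98% from 3 of 43 reads. RICTOR, the marker of complex 2, had no called site in any list, although its transcript of 9543 bases is the longest of the 10 and holds 521 cytosines after a U. RICTOR lies on chromosome 5 at 38937919 to 39074408. Its level in these cells cannot be read from the lists.

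**Figure D3:**
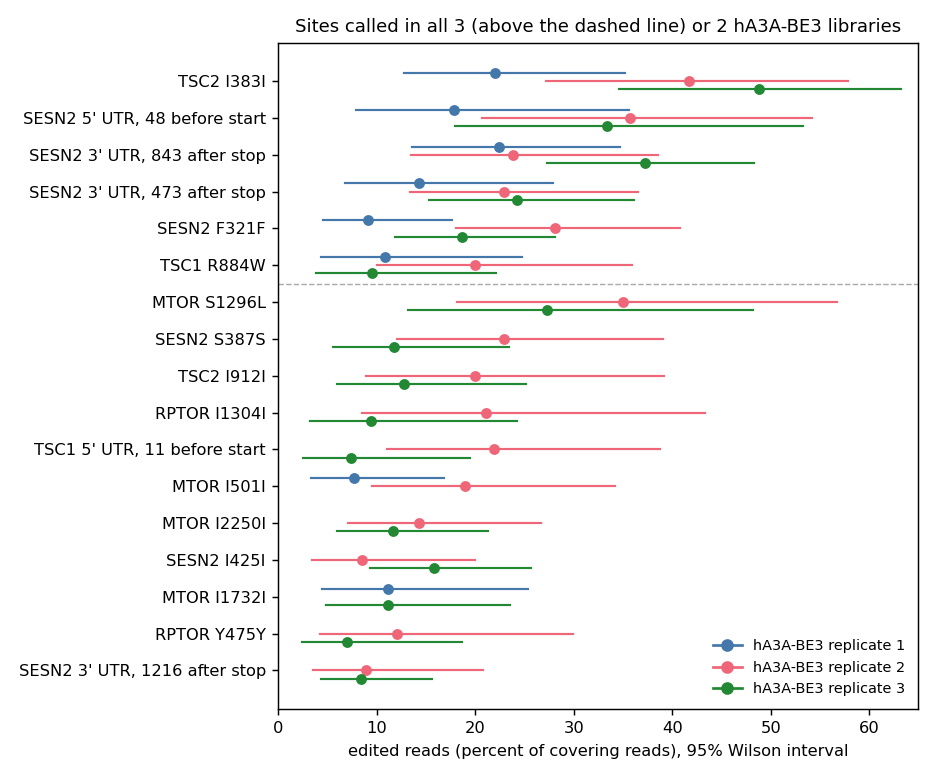
Edited reads in percent of covering reads (horizontal axis) at the 17 sites called in at least 2 hA3A-BE3 libraries, with 1 point per library with a call and its 95% Wilson interval. Replicate 1 is the lowest at 5 of the 6 sites above the dashed line, which were called in all 3 libraries, TSC1 R884W being the exception.

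Sites listed in more libraries had higher mean levels. No list held a level under 5.02%, so sites with low levels drop out of lists. This order is therefore built in at least in part, and nothing is read from it. Mean levels ran from 5.06% to 17.6% at the 33 sites called once (median 7.81%), from 8.61% to 31.1% at the 11 called in 2 libraries (median 13.3%) and from 13.4% to 37.5% at the 6 called in all 3 (median 24.1%). Many calls lay near the limit of the lists. Of the 73 C-to-U calls in the 10 genes, 44 rested on 3 to 5 mutated reads and 31 were under 10%. The median call of the 10 genes had 43, 36 and 50.5 covering reads in replicates 1 to 3, and the median C-to-U call of all genes 48, 45 and 53. At this depth a site edited at a few percent could not be told from an unedited one.

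**Figure D4:**
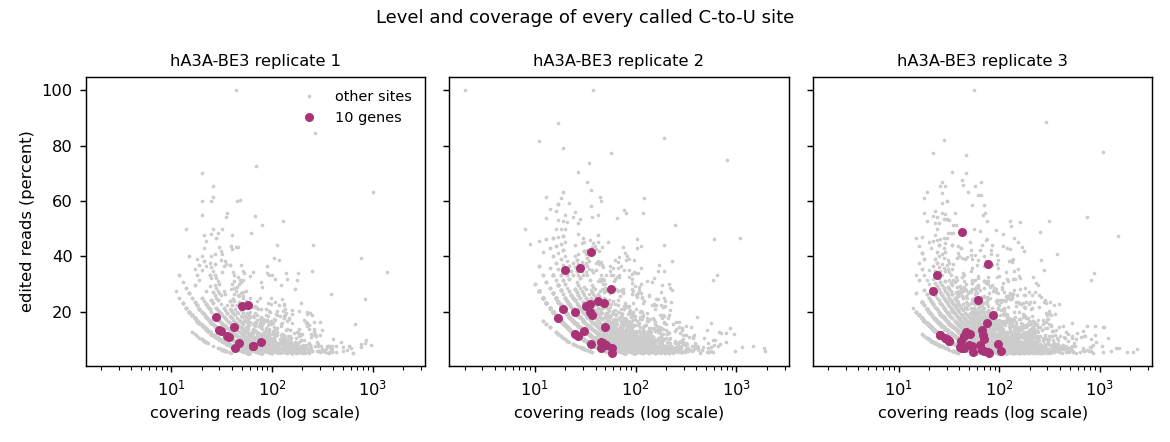
Edited reads in percent (vertical axis) against covering reads (horizontal axis, log scale) for every C-to-U call of the 3 hA3A-BE3 libraries, with the 13, 24 and 36 calls of the 10 genes in colour. The coloured points lie between 17 and 103 covering reads.

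Most of the sites fell in coding sequence and left the protein unchanged. Of the 50 sites 41 (82.0%) were coding, against 69.9% of all hA3A-BE3 C-to-U sites, 7 (14%) lay in a 3′ UTR, against 25.2%, and 2 (4%) in a 5′ UTR, against 2.54%. All but 1 of the 3′ UTR sites belonged to SESN2. Of the coding sites 30 (73.2%) were synonymous, against 49.7% of all coding hA3A-BE3 sites, 10 (24.4%) changed an amino acid, against 35.5%, and 1 (2.44%) made a stop codon, against 14.8%. The 10 amino acid changes came from TSC1 and TSC2 with 2 each and MTOR and RPTOR with 3 each.

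Of the coding sites 20 (48.8%) were synonymous isoleucine changes, against 29.2% of all coding hA3A-BE3 sites. Serine became leucine at 4 (9.76%), against 14.8%. Codons open to such changes were counted in the 10 genes alone, so the counts below have no share over all genes beside them. Whether codon content underlies the shares was not tested. The coding sequences of the 10 genes hold 336 isoleucine codons AUC, in which the edited base follows a U, and 20 of these (5.95%) were called. SESN2 had 3 of 15 called, TSC2 6 of 62, MTOR 5 of 75 and RPTOR 3 of 53. Of 163 serine codons UCA or UCG, where the change gives leucine, 4 were called, 2 each in MTOR and RPTOR. At 105 glutamine or arginine codons a C after a U would give a stop codon if edited, and 1 was called, in SESN2.

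The base before the edited C was U at 46 of the 50 sites (92%), against 95.3% of all exonic hA3A-BE3 sites. The exceptions were SESN2 S387S, TSC2 T584M, MTOR P189S and RPTOR Y475Y, with mean levels of 6.67% to 17.3%. The 4 letters CAUC, read on the transcript strand and ending in the edited C, stood at 19 sites (38.0%), against 28.3% of all exonic hA3A-BE3 sites and 10.1% of the 3336 cytosines after a U in the 10 transcripts. Such a cytosine was called at 19 of 337 CAUC positions (5.64%) and at 27 of the 2999 others (0.900%). The counts per gene were small and their differences were not tested. In TSC2 7 of 57 CAUC positions and 1 of 349 others were called, in MTOR 6 of 67 and 4 of 413, and in RPTOR 3 of 42 and 6 of 369. In SESN2 1 of 15 CAUC positions and 12 of 197 others were called, and in TSC1 0 of 32 and 4 of 469. The letters describe the sequence and do not show binding, and called positions depend on coverage.

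APOBEC3A is known to favour cytosines at the end of small hairpin loops. When the transcript 15 bases on each side of each site was folded by computer, 5 of the 6 recurrent sites of the 10 genes had the edited C in a hairpin loop, and F321F of SESN2 was predicted to be paired. A hairpin loop of any size counted here, closed by 1 base pair or more, so these are not small hairpins alone. Loops of the 10 genes' sites reached 16 bases (MTOR I2163I), and the stem at RPTOR Y475Y had 1 pair. Of all 50 sites 40 (80.0%) lay in a predicted hairpin loop, against 72.9% of the 10186 exonic hA3A-BE3 sites of all genes. The share was 87.2% of the 1043 recurrent exonic sites of all genes and 45.05% of the 3290 uncalled cytosines after a U in the 10 transcripts. The edited C was the last base of a loop of 4 bases at the SESN2 5′ UTR site, TSC1 R884W and TSC2 I383I, with stems of 4, 2 and 4 base pairs. It was the last base of a loop of 3 bases at the SESN2 site 843 bases after the stop codon. In all, the last base of a 4-base loop held 7 of the 50 sites (14%) and 12.9% of the exonic hA3A-BE3 sites of all genes. It held 3 of the 6 recurrent sites of the 10 genes, 26.7% of the recurrent sites of all genes and 1.61% of the uncalled cytosines. These structures are predictions for short windows and were not measured.

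**Figure D5:**
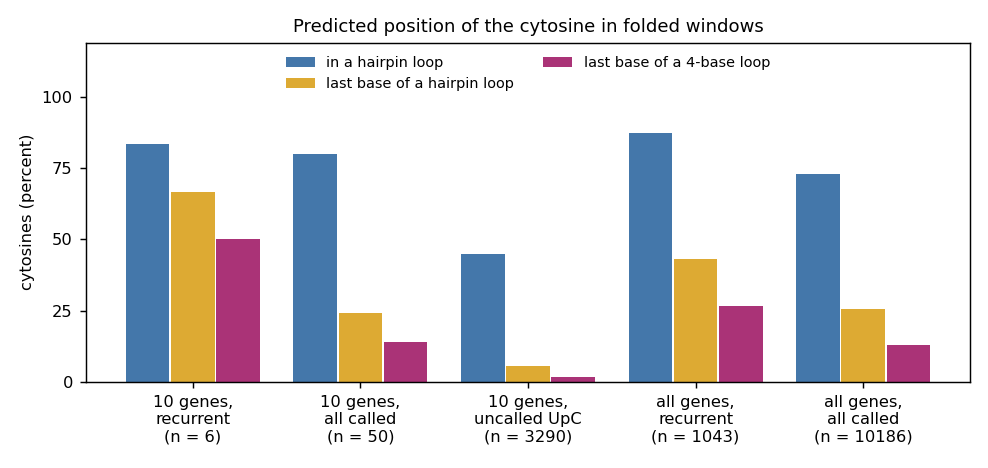
Percent of cytosines (vertical axis, bars from 0) predicted in a hairpin loop, at the last base of one, and at the last base of a 4-base loop, in windows of 15 bases on each side. The groups are the 6 recurrent and all 50 called sites of the 10 genes, the 3290 uncalled cytosines after a U in their transcripts and the 1043 recurrent and all 10186 called exonic sites of all genes; loop positions take a larger share of the called than of the uncalled cytosines.

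Other genes of the pathway were edited at few recurrent sites. Of 70 further regulators and targets listed from general knowledge, 69 were annotated under that name. A C-to-U site in a hA3A-BE3 library was found in 32 (46.4%, against 23.2% of protein-coding genes) and a recurrent one in 4 (5.80%, against 4.39%). PRKAA1, a catalytic subunit of the energy sensor AMPK, had a 3′ UTR site at 18.2%, 31.1% and 16.3% in replicates 1 to 3 (21.9% ± 8.07, SD, n = 3). SEC13, a part of GATOR2 and of a vesicle coat, had S19L at 14.8%, 24.7% and 22.9% (20.8% ± 5.30, SD, n = 3), from 190 to 292 reads.

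RRAGD, a Rag GTPase, had a 3′ UTR site at 17.9%, 12.1% and 15.8%, and EIF4EBP1, a translation repressor that complex 1 phosphorylates, one at 6.70%, 10.5% and 12.2%. Each of the 4 genes held 1 recurrent site, as TSC1 and TSC2 did, and none held as many as SESN2. The sestrin SESN1 had 4 sites, none of them recurrent. In the 11 libraries without the base editor, 3 of the 69 genes had a C-to-U site. Of the 5608 genes with any called site, 3.5% had one in the 9 control libraries, which leave out PE3. The libraries and the sets of genes differ, so nothing is read from this count.

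Across the 14 libraries the genes nearest to SESN2 in their number of C-to-U sites were GCN1, PRRC2B, DNAJB1, UBR4 and FASN. Likeness was the summed absolute difference of sites per library, which was 1, 2, 3, 4 and 5 in that order, and FLNA tied with FASN. GCN1 held 7, 9 and 10 sites in replicates 1 to 3, against 6, 9 and 10 in SESN2. Of these genes PRRC2B had 5 recurrent sites, DNAJB1 4, GCN1 and FASN 3 and UBR4 1. Transcript length was not taken into account in this comparison.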

How the data were processed

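Total RNA of 293FT cells was sequenced as stranded libraries with pairs of 150-base reads, per the labels' protocols. The submitters' processing notes name BWA 0.7.17 and the build GRCh38 (hg38), with no role stated. The caller and its filters were not given in the sources used here. For each library the authors deposited 1 list of called sites. Its columns hold deposited counts of covering and mutated reads, the deposited edited fraction, and a deposited signal equal to a larger read depth divided by a constant per library, read here as mapped gigabases. PE3 replicate 1 was not analysed here.

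Strands were recovered from the base columns, and all 35008 exonic calls had the reference base of their GENCODE 29 transcript. Region and protein effect followed the basic transcripts, a coding reading being preferred to a UTR, a UTR to a non-coding exon and an exon to an intron, longest transcript first. Intervals are Wilson 95% (statsmodels 0.14.6); folding used ViennaRNA 2.7.2 at minimum free energy. Counting of recurrent sites was tested on simulated data. No significance test was fitted. The members and gene lists were chosen with earlier results of these data known. Named were all members with their sites, pathway genes with a recurrent site, and the 5 genes nearest to SESN2, ties by symbol; SESN1, FLNA and the members' sites called once were named after their values were seen. Alternatives were limits on covering reads (20 and 50), edited share (10%) and mutated reads (5), either strand, a looser rule for recurrence, other folding windows and leaving out each hA3A-BE3 library.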

Additional observations from a re-analysis of the deposited data

How the results depend on the processing

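The 10 genes' mean of 24.3 C-to-U sites in a hA3A-BE3 library became 9.33 where 50 covering reads were required, 14 where an edited share of 10% was and 11.7 where 5 mutated reads were, and ran from 18.5 to 30 with 1 library left out. The 6 recurrent sites in 3 genes became 1 (SESN2 F321F) in 1 gene, 4 in 2 genes and 5 in 2 genes under these limits in turn. The 4 pathway genes with a recurrent site became 2, 3 and 3. Called in at least 2 of the 3 libraries, there were 17 sites in 5 genes, and the share of genes with any called site that held a recurrent one was 33.8%. That share, 15.7% as reported, was 17.9% where 5 mutated reads were required and 11.1% where an edited share of 10% was. With a hA3A-BE3 library left out recurrence needs fewer calls, so it can only grow: 7 to 15 sites in 4 to 5 of the 10 genes, 4 to 7 pathway genes and 21.3% to 29.2% of such genes, each highest without replicate 1 (the pathway genes equally without replicate 2). The 15 sites without replicate 1 included none in a gene other than SESN2, TSC1, TSC2, MTOR and RPTOR. In windows of 25 bases on each side 100% of the 6 recurrent sites lay in a predicted hairpin loop, but 70% of the 50 sites and 33.7% of the uncalled cytosines did, and 0.699% of the latter were the last base of a 4-base loop. In windows of 10 bases the last base of such a loop held 2 of the 6 sites. Sites on either strand and at least 20 covering reads left the same 6 recurrent sites. TSC1 R884W was lost as recurrent under each limit but that of 20 covering reads, and SESN2 F321F at an edited share of at least 10%. Mutated over covering reads gave the deposited levels of the recurrent sites. Precision was limited by 24 to 86 covering reads per recurrent site and library. No paired analysis was possible because the results come from no test.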
